A study of Mus musculus with 8 samples.

Results

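Interferon-stimulated genes are the genes that cells switch on after they sense a virus or receive an interferon signal. The set described here holds 33 of them, a list of sensors, signalling factors, antiviral effectors, a chemokine and proteasome subunits, and all 33 were found among the 54446 genes of the count table. The rule was a list of gene names and used no measured value, although the list was drawn up with earlier results of these data known. Poly(A) RNA from mouse medial prefrontal cortex was sequenced in 4 libraries labelled as Ino80e overexpression and in 4 wild-type ones, called OE1 to OE4 and WT1 to WT4 after their replicate numbers. The overexpression mice are described as injected stereotaxically in that region with an adeno-associated virus that alters the expression of Ino80e, which codes for part of the INO80 complex, a remodeller of chromatin. Wild-type mice are described by that label alone. The sources used here give no strain, age, promoter, time after injection or control virus. The comparison asks which transcripts differ between the groups.

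In the classical pathway, RNA or DNA in the wrong compartment is detected by sensors such as the RIG-I-like helicases, and type I interferon is made and secreted. Interferon binds its receptor, the kinases Jak1 and Tyk2 phosphorylate signalling factors that include Stat2, and Stat2 acts with Irf9 in a complex that binds a DNA motif called the interferon-stimulated response element. In brain, microglia, astrocytes, endothelial cells and neurons can each respond, and interferon-stimulated genes are known to be expressed at a low level without infection. RNA of whole tissue does not tell more cells of a type apart from more RNA per cell.

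The motif is shown first, because its matches were not looked up to choose the set. They are no independent support, since genes listed as interferon-stimulated are those that the complex above can act on. Promoter windows of 300 bases, from 250 before to 50 after the transcription start, were available from RefSeq (GRCm38.p6) for 26 of the 33 members. The letters searched were GAAA, then any 2 bases, then GAAA, on both strands, with overlapping matches counted separately. A match was present for 16 of the 26 members, or 61.5%, against 3.99% of 27025 genes with a window. Positions are those of the first base of the match in the window as printed, counted from the transcription start with negative numbers upstream, and capitals mark the matches.

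The window of Isg15 (chr4:156200769-156201068, minus strand) holds 3 overlapping matches at -78, -72 and -66, and that of Ifit1 (chr19:34640639-34640938, plus strand) holds 2 at -104 and -85. Irf7 (chr7:141266375-141266674, minus strand) is shown beside them because it holds no match in this window, although its OE1 level stood furthest above wild type after those of Isg15 and Oasl2 among members of at least 1 CPM.
Isg15: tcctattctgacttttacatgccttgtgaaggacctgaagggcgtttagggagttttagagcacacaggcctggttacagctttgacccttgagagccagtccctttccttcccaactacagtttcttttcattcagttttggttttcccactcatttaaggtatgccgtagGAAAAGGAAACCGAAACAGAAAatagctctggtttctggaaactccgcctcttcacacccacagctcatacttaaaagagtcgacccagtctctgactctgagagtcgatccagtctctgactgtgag
Ifit1: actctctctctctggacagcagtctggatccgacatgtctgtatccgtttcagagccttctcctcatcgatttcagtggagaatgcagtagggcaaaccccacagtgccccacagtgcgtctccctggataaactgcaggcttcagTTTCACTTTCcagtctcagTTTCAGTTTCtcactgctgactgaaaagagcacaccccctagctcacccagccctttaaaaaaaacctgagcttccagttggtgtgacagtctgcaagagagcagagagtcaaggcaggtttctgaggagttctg
Irf7: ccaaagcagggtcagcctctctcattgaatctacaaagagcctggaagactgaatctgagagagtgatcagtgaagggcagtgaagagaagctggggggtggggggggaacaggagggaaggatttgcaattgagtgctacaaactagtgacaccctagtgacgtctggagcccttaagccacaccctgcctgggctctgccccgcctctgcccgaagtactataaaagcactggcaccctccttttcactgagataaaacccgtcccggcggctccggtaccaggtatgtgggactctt

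The neighbouring paralogs Ifit3 and Ifit3b carry the same 30 bases around their upstream match, at -156 in Ifit3 (chr19:34583363-34583392) and -188 in Ifit3b (chr19:34607759-34607788). Short windows of Oas1a (chr5:120907526-120907555), Bst2 (chr8:71537583-71537612), the guanylate-binding protein genes Gbp2 (chr3:142620594-142620623) and Gbp3 (chr3:142559989-142560018), and Cxcl10 (chr5:92349083-92349112) are given to show how the bases between the repeats vary. In the minus orientation the match reads as its reverse complement.
Ifit3: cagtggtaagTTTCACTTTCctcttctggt
Ifit3b: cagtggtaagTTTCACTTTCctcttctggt
Oas1a: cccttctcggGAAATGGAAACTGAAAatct
Bst2: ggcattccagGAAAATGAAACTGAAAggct
Gbp2: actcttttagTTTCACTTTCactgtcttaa
Gbp3: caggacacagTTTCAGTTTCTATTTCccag
Cxcl10: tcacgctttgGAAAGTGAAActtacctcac

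Libraries held 44762378 to 60490153 counts, and levels are given as CPM, the count relative to library size after TMM scaling. Ino80e, the gene named in the label, stood at 74.1, 23.4, 23.3 and 45.04 CPM in OE1 to OE4 and at 22.3, 19.5, 25.5 and 20.7 CPM in WT1 to WT4. OE1 and OE4 lie above the wild-type libraries and OE2 and OE3 within their range, so the libraries labelled overexpression do not share a raised level (edgeR quasi-likelihood log2 fold change 0.91, SE 0.42, Benjamini-Hochberg adjusted p = 0.51). Exons of Ino80e overlap those of Doc2a and Hirip3 on the opposite strand. The neuronal markers summed to 8896 to 9942 CPM in all 8 libraries, as a sum over 7 genes such tissue should express. WT4 stood apart in choroid plexus RNA, with 49579 counts of Ttr, the transthyretin gene, against 113 to 5482 in the other 7 libraries.

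No interferon-stimulated gene differed between the groups past the threshold, and the higher average of the libraries labelled overexpression came almost wholly from OE1. Of the 33 members, 31 passed the filter on low counts and were tested, and 0 passed an adjusted p under 0.05 in edgeR, where 0.034% of all 17636 genes tested did and 0.0113% did so with a higher level. At an unadjusted p under 0.05 there were 4 higher members (Usp18, Gbp7, Ifi27l2a and Psmb8) and 0 lower, where 5.24% of all genes were higher and 5.43% lower at that level. DESeq2 gave an adjusted p for 23 of the members and called 0, with the lowest at 0.22 for Psmb8, and limma-voom called 0 of 31. Over all genes, DESeq2 called 0.195% higher and 0.123% lower, and limma-voom called 0.00567% higher. At an unadjusted p under 0.05 DESeq2 had 9 of 31 members, where 11.4% of all genes passed in either direction, and limma-voom had 4 of 31, where 10.5% did.

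The count at that unadjusted level moved with the libraries and the filter, while edgeR called 0 members in each of these fits. Without OE3 it was 17 of 33 members, where 7.73% of all genes passed in either direction. Without OE2 and OE3 it was 22 of 33, where 7.08% did, and with no low-count filter 17 of 33, where 9.74% did. All 33 members entered these fits because Cxcl10 and Zbp1 then passed the filter or met none. Cxcl10 could pass only through overexpression libraries, with 223, 20 and 18 counts in OE1, OE2 and OE4 and at most 8 in wild type. These counts of members are therefore no support for a difference. Without OE1 the count was 2 of 31, where 9.75% of all genes passed. Leaving out OE2 gave 5 of 31 and leaving out OE4 gave 7 of 32. Leaving out WT1, WT2, WT3 or WT4 gave 2 of 33, 2 of 33, 2 of 32 and 4 of 33. The filter of 1 CPM in 4 libraries gave 2 of 26. For the fits without OE2, OE4 or a wild-type library and for that filter, no share over all genes is given here.

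The 31 tested members had log2 fold changes between 0.0033 (Samd9l) and 1.96 (Ifi27l2a) with a median of 0.46, beside a median of 0.0016 over all genes tested and 50.5% of all genes above 0. Without OE1 the median of the same 31 members was 0.0062 and 17 of them lay above 0, beside a median of 0.0036 and 50.8% above 0 over all genes. In that fit edgeR called 0 members, where 0.0111% of all genes were called, and the 2 members at an unadjusted p under 0.05 were Ifit3 (above 0) and Ifi44 (below 0). No member had its 4 overexpression libraries above its 4 wild-type libraries, which 2.82% of all genes tested did. Leaving out OE1 took the median of the list close to that of all genes, while single members kept values of either sign.

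**Figure D1:**
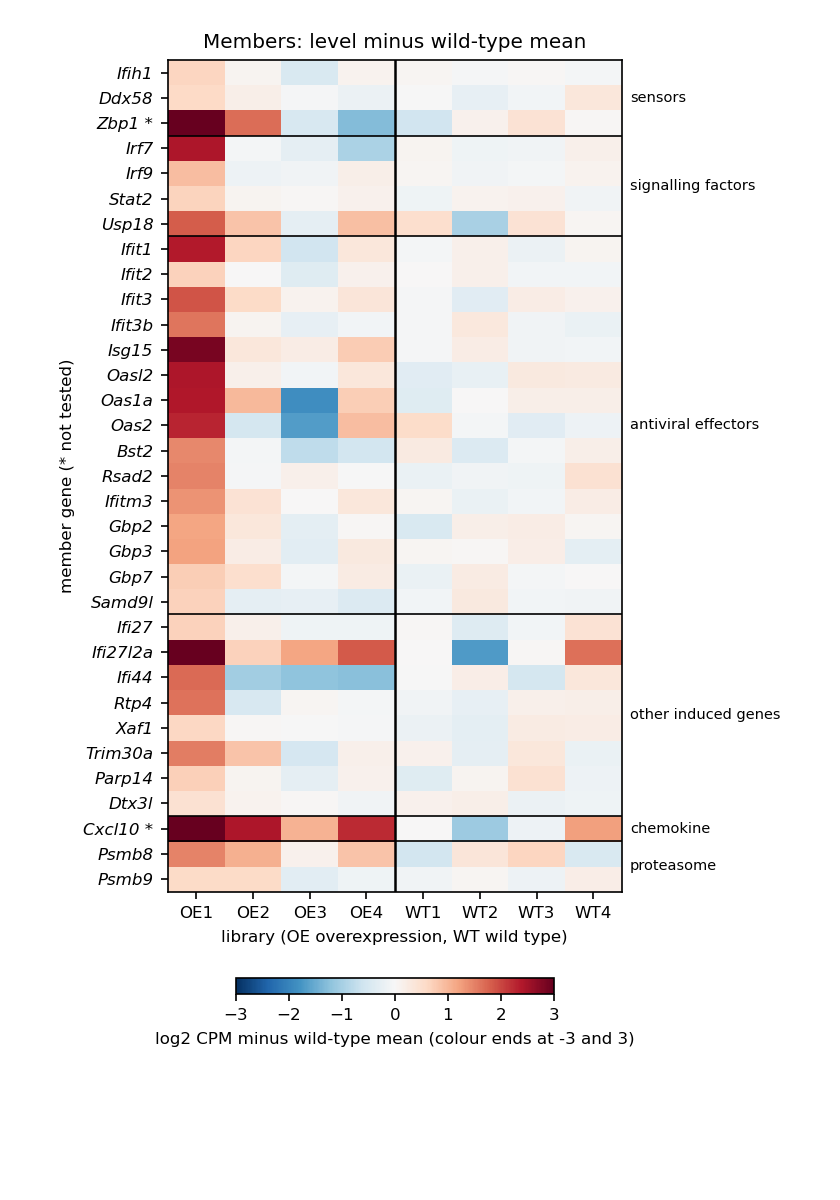
Level of each of the 33 members in each library as log2 CPM minus the mean of the 4 wild-type libraries, grouped by role, with members below the low-count filter marked by an asterisk and colours saturating at -3 and 3. The OE1 column is raised along its whole length, while OE2 to OE4 hold values of either sign.

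OE1 had the highest level of 30 of the 31 tested members, where it had the highest level of 11.8% of all genes tested, and Psmb9 was the exception, highest in OE2. In OE1, 19 of 31 members stood at least 1 above the wild-type mean on the log2 CPM scale, where 2.01% of all genes did. In each of OE2, OE3 and OE4 a single member did, where 1.99%, 1.58% and 2.46% of all genes did. All 31 tested members lay above their highest wild-type library in OE1, where 21.5% of all genes did.

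The other 3 libraries labelled overexpression were not alike. In OE2, 13 of 31 members lay above the wild-type range (41.9%, beside 20.8% of all genes) and 5 below it (16.1%, beside 21.2%). In OE4, 15 lay above (48.4%, beside 22.4% of all genes) and 4 below (12.9%, beside 21.7%). In OE3, 0 lay above, beside 22.4% of all genes, and 14 lay below (45.2%, beside 22.0% of all genes). The members that were low in OE3 included Ifih1, Irf7, Ifit1, Ifit2, Oas1a, Oas2, Bst2 and Gbp3. Samd9l and Ifi44 lay below the wild-type range in all of OE2, OE3 and OE4.

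Taken as mean differences from the wild-type mean on the log2 CPM scale over the 31 members, OE1 stood at 1.44, OE2 at 0.21, OE3 at -0.26 and OE4 at 0.16, and the wild-type libraries ran from -0.10 to 0.10. OE1 therefore carried 93.3% of the summed log2 shift of the 4 libraries, OE2 13.4%, OE3 -17.0% and OE4 10.3%. On the linear scale the summed CPM of these members was 346 in OE1, 174 in OE2, 139 in OE3 and 164 in OE4, against 149 to 160 in wild type. OE1 then carried 94.3% of the excess over wild type.

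**Figure D2:**
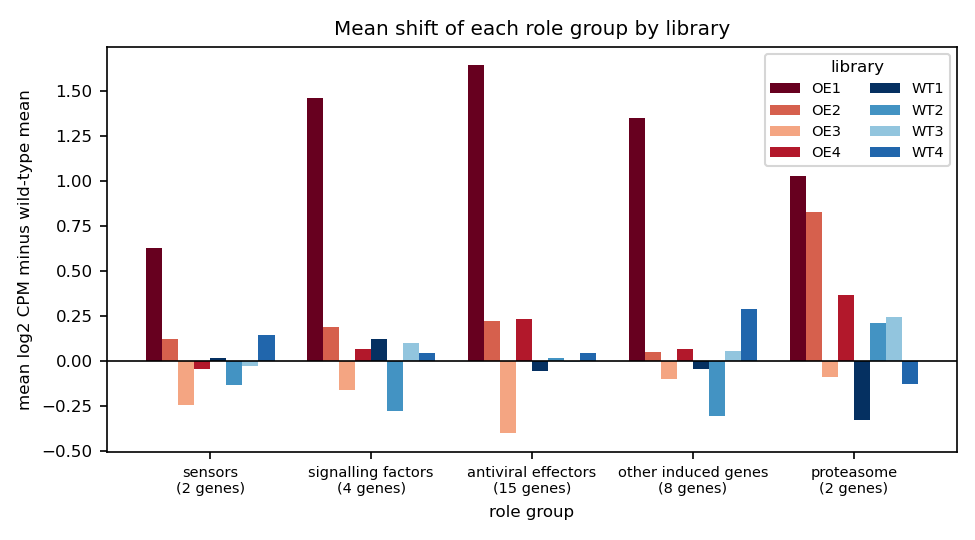
Mean log2 CPM minus the wild-type mean for the tested members of each role group, 1 bar per library. OE1 exceeds every other library in each group, and in the proteasome pair OE2 comes close to it, at 0.82 against 1.03.

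Among the sensors, Ifih1 encodes the helicase MDA5, Ddx58 encodes RIG-I, which detects RNA with a triphosphate end, and Zbp1 encodes a sensor of Z-form nucleic acids. Ifih1 stood at 12.3, 8.20, 5.62 and 8.32 CPM in OE1 to OE4 and at 8.09, 7.64, 7.97 and 7.43 CPM in WT1 to WT4 (log2 fold change 0.14, SE 0.17, adjusted p = 0.79). OE1 was clearly above the narrow wild-type range, OE2 and OE4 just above it and OE3 below it. Ddx58 was 1.496 times its wild-type mean in OE1 and 0.985 times on average in OE2 to OE4.

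Zbp1 missed the low-count filter. It had 89, 28, 6 and 2 counts in OE1 to OE4 and 4, 8, 12 and 8 in WT1 to WT4. Its counts in OE1, relative to scaled library size, were 10.5 times those of wild type (95% exact interval 6.97 to 16.3, counting error only), and those of the other 3 libraries together were 1.39 times (0.839 to 2.31). OE2 was also above the wild-type counts of Zbp1, and OE3 and OE4 were not. As a pair, Ifih1 and Ddx58 had a median log2 fold change of 0.15, and -0.051 without OE1.

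Among the signalling factors, Irf7 encodes the transcription factor that amplifies interferon production, Irf9 and Stat2 encode parts of the complex that binds the motif above, and Usp18 encodes a protease that removes Isg15 from proteins and restrains receptor signalling. Irf7 stood at 15.7, 2.79, 2.38 and 1.48 CPM in OE1 to OE4 and at 3.05, 2.65, 2.699 and 3.21 CPM in WT1 to WT4. In OE1 the level was 5.39 times that of wild type (mean 2.90 ± 0.272 CPM, SD, n = 4), and OE3 and OE4 lay below the wild-type range. Its log2 fold change of 0.94 (SE 0.81, edgeR adjusted p = 0.71) became -0.39 (SE 0.24, adjusted p = 0.61) without OE1, so the sign of Irf7 rested on that library.

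Usp18 stood at 2.46, 1.24, 0.546 and 1.29 CPM in OE1 to OE4 and at 0.958, 0.320, 0.912 and 0.693 CPM in WT1 to WT4. Here OE1, OE2 and OE4 were above the wild-type range and OE3 within it. The log2 fold change of Usp18 was 0.93 (SE 0.41, adjusted p = 0.43), and 0.50 (SE 0.42) without OE1. Stat2 was the most abundant member by CPM in wild type, at 22.9 ± 2.26 CPM (SD, n = 4), and in OE1 it stood at 36.0 CPM. Irf9 was 1.91 times its wild-type mean in OE1 and 0.985 times in OE2 to OE4. The median log2 fold change of these 4 genes was 0.61, and 0.029 without OE1.

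The antiviral effectors formed the largest group, with 15 members, all of which passed the filter. Isg15 encodes a ubiquitin-like protein that is attached to other proteins after interferon. It stood at 7.48, 1.28, 1.17 and 1.72 CPM in OE1 to OE4 and at 0.980, 1.18, 0.930 and 0.951 CPM in WT1 to WT4. OE1 was 7.42 times the wild-type mean, OE2 and OE4 also exceeded the wild-type range, and OE3 lay just inside it. With a log2 fold change of 1.53 (SE 0.66, edgeR adjusted p = 0.47) Isg15 came after Ifi27l2a alone among the 31 members that passed the filter, and 0.46 (SE 0.31, adjusted p = 0.64) remained without OE1. The transcript of Isg15 shares 482 bases at 95.2% identity with another annotated sequence, so some of its reads may be divided.

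The Ifit genes, which encode proteins that bind foreign RNA and block its translation, lie together on chromosome 19 at 34550694 to 34650009 of GRCm38. Ifit1 stood at 13.6, 4.07, 1.74 and 3.28 CPM in OE1 to OE4 and at 2.50, 2.88, 2.30 and 2.73 CPM in WT1 to WT4. OE1 was 5.23 times the wild-type mean, OE2 and OE4 were above the wild-type range and OE3 below it (log2 fold change 1.12, SE 0.66, adjusted p = 0.58, and 0.21, SE 0.25, without OE1). Ifit3 stood at 31.8, 12.9, 9.32 and 11.2 CPM in OE1 to OE4 and at 8.49, 6.83, 10.1 and 9.47 CPM in WT1 to WT4. OE1, OE2 and OE4 were above its wild-type range and OE3 within it.

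Ifit3 kept part of its difference without OE1, at a log2 fold change of 0.35 (SE 0.14, edgeR adjusted p = 0.46), the only member above 0 there with an unadjusted p under 0.05. Its paralog Ifit3b was 3.02 times wild type in OE1 and 0.939 times on average in OE2 to OE4. The transcripts of Ifit3 and Ifit3b are 97.8% identical over 1700 bases, so their reads may have been divided in an unknown way. Ifit2 differed from its neighbours in size: its OE1 level was 1.62 times that of wild type (mean 13.1 ± 0.969 CPM, SD, n = 4) and the log2 fold change was 0.16 (SE 0.19). The 4 neighbours thus ranged from 1.62 to 5.23 times wild type in the same library.

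Oasl2, Oas1a and Oas2 encode members of the oligoadenylate synthetase family, which detects double-stranded RNA and, in its active members, switches on RNase L. Oasl2 stood at 22.0, 4.50, 3.84 and 5.18 CPM in OE1 to OE4 and at 3.21, 3.502, 4.96 and 4.89 CPM in WT1 to WT4. OE4 lay just above the wild-type range and OE1 far above it, at 5.30 times the wild-type mean, and the log2 fold change of 1.09 (SE 0.66, edgeR adjusted p = 0.59) was 0.12 (SE 0.19) without it. Oas1a and Oas2 were 5.62 and 5.12 times wild type in OE1, from means of 0.473 and 0.413 CPM. In OE3 each had 6 counts, against at least 16 and 17 in the wild-type libraries. Oas1a is 97.6% identical over 1861 bases to Oas1g, and its counts are uncertain for that reason.

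Bst2 encodes tetherin, which holds budding virus particles at the cell surface, and its libraries of the overexpression label went to either side of wild type. It stood at 7.85, 2.75, 1.69 and 1.96 CPM in OE1 to OE4 and at 3.48, 2.16, 2.77 and 3.25 CPM in WT1 to WT4. OE1 was 2.69 times the wild-type mean while OE3 and OE4 were below the wild-type range. The log2 fold change of Bst2 was 0.29 (SE 0.52, edgeR adjusted p = 0.88), and -0.45 (SE 0.24, adjusted p = 0.56) without OE1.

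Rsad2, which encodes viperin, an enzyme that makes a chain-terminating nucleotide, was 2.80 times wild type in OE1 and 1.003 times in OE2 to OE4. Ifitm3 encodes a membrane protein that blocks virus entry and had the highest wild-type level of the set per kilobase of exon, at 11.5 CPM per kilobase. It stood at 19.7, 10.5, 7.85 and 9.87 CPM in OE1 to OE4 and at 8.15, 6.71, 7.37 and 9.03 CPM in WT1 to WT4. OE1, OE2 and OE4 exceeded the wild-type range of Ifitm3 (log2 fold change 0.62, SE 0.29, edgeR adjusted p = 0.50, and 0.27, SE 0.14, without OE1).

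The guanylate-binding proteins Gbp2, Gbp3 and Gbp7 are GTPases that attack membranes of intracellular pathogens, and their genes lie on chromosome 3 at 142530342 to 142638008. They were 2.23, 2.32 and 1.66 times wild type in OE1 and 1.02, 1.06 and 1.18 times in OE2 to OE4. Gbp7 had the smallest SE of these, with a log2 fold change of 0.38 (SE 0.16, edgeR adjusted p = 0.41), and 0.24 (SE 0.17) without OE1. Its exons share 637 bases with an annotated processed pseudogene on the same strand. Samd9l, which encodes a restriction factor against poxviruses, stood at 9.27, 4.79, 4.81 and 4.35 CPM in OE1 to OE4 and at 5.39, 7.005, 5.47 and 5.31 CPM in WT1 to WT4. OE1 was high and the other 3 low, and these cancelled to a log2 fold change of 0.0033 (SE 0.21), and -0.32 (SE 0.16, adjusted p = 0.53) without OE1. The 15 effectors together had a median log2 fold change of 0.54, and 0.080 without OE1.

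**Figure D3:**
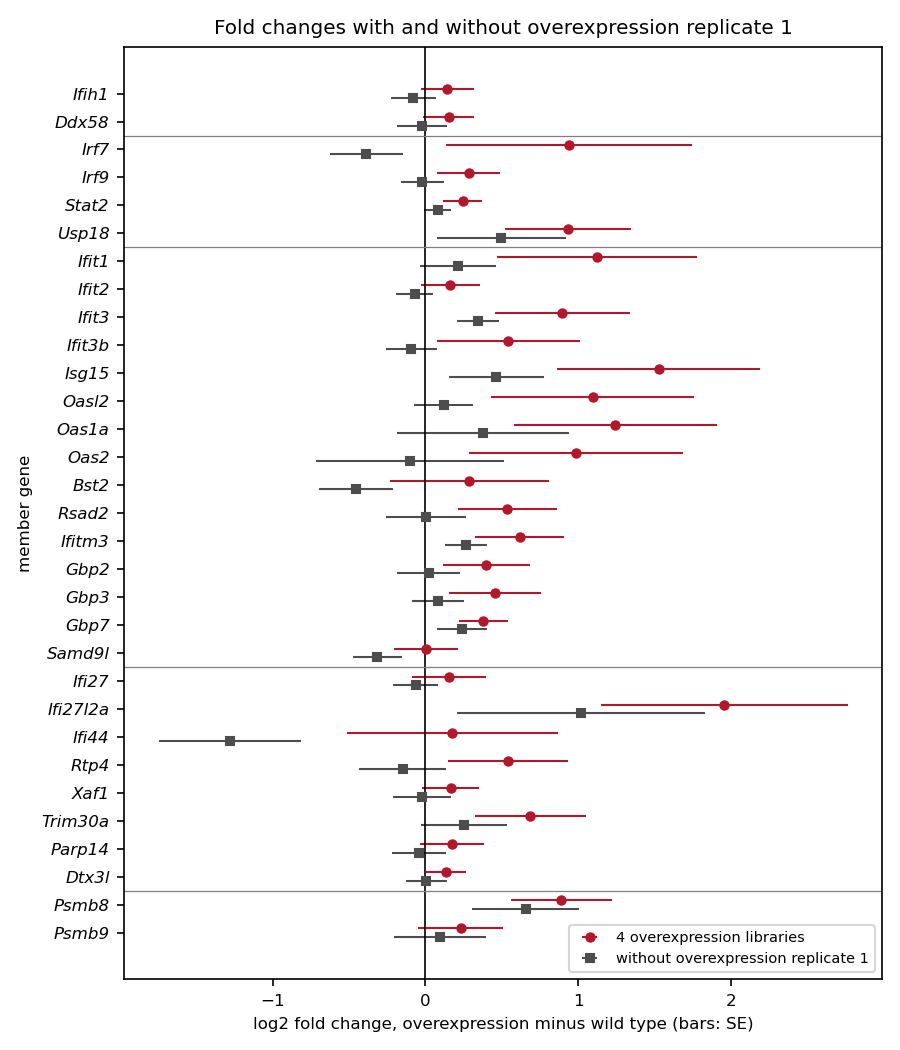
Log2 fold change of each tested member, overexpression minus wild type, with its SE, from the fit of all 8 libraries (red circles) and without OE1 (grey squares), with grey lines between role groups. Without OE1 the values centre near 0, with Ifi44 lowest at -1.28 and Ifi27l2a highest at 1.02.

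Of the other interferon-induced members, Ifi44 was high in OE1 and low in the other 3 libraries of its label. It stood at 2.73, 0.372, 0.331 and 0.316 CPM in OE1 to OE4 and at 0.802, 0.940, 0.547 and 1.03 CPM in WT1 to WT4. OE1 was 3.29 times the wild-type mean, and OE2, OE3 and OE4 together were 0.409 times. The log2 fold change of Ifi44 was 0.18 (SE 0.69, edgeR adjusted p = 0.95), and -1.28 (SE 0.47, adjusted p = 0.42) without OE1. With Ifit3 it is 1 of 2 members with an unadjusted p under 0.05 in that fit, where 9.75% of all genes were.

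Ifi27 and Ifi27l2a encode small hydrophobic membrane proteins and lie side by side on chromosome 12 at 103434211 to 103443680. Ifi27 was 1.59 times wild type in OE1 and 0.957 times in OE2 to OE4. Ifi27l2a had 68, 8, 15 and 21 counts in OE1 to OE4 and 4, 0, 5 and 18 in WT1 to WT4, a log2 fold change of 1.96 (SE 0.81, edgeR adjusted p = 0.41). The counts of OE1 were 9.54 times those of wild type (95% exact interval 6.03 to 15.5), and those of the other 3 libraries were 2.01 times (1.22 to 3.38), but WT4, with 18 counts, exceeded OE2 and OE3.

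Rtp4, which encodes a chaperone of G protein-coupled receptors that also limits virus replication, was 3.13 times wild type in OE1 and 0.901 times in OE2 to OE4. Trim30a, which encodes a ubiquitin ligase that restrains inflammatory signalling in mouse, stood at 5.83, 3.66, 1.41 and 2.23 CPM in OE1 to OE4 and at 2.21, 1.64, 2.535 and 1.74 CPM in WT1 to WT4. OE1 and OE2 were above the wild-type range and OE3 below it (log2 fold change 0.69, SE 0.36, edgeR adjusted p = 0.53). Xaf1, a promoter of apoptosis, Parp14, an ADP-ribosyltransferase, and Dtx3l, a ubiquitin ligase that works with Parp9, were 1.53, 1.61 and 1.38 times wild type in OE1, and 0.987, 0.974 and 1.003 times in OE2 to OE4. Dtx3l and Parp9 share 458 exon bases on opposite strands, and Dtx3l had the smallest ratio of OE1 to wild type among the 31 tested members. The 8 genes of this group had a median log2 fold change of 0.18, and -0.032 without OE1.

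Cxcl10 encodes the chemokine that draws T cells through the receptor Cxcr3, and it missed the low-count filter. It had 223, 20, 8 and 18 counts in OE1 to OE4 and 2, 0, 2 and 8 in WT1 to WT4. The counts of OE1 were 70.4 times those of wild type (95% exact interval 39.5 to 138), and those of OE2, OE3 and OE4 together were 4.74 times (2.47 to 9.82), which covers counting error only. OE3 and WT4 held 8 counts each, so the groups overlap at the low end. In an edgeR fit with no low-count filter Cxcl10 had a log2 fold change of 4.37 (SE 1.54, adjusted p = 0.47), a value that depends on the prior count and is no bound. Cxcl9, a chemokine of the same receptor and no member, had 22, 6, 0 and 8 counts in OE1 to OE4 and 0 in each wild-type library.

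Psmb8 and Psmb9 encode catalytic subunits that replace the constitutive ones in the immunoproteasome, the form that trims peptides for class I presentation, and lie on chromosome 17 at 34181987 to 34201454. Psmb8 stood at 2.69, 2.003, 1.03 and 1.72 CPM in OE1 to OE4 and at 0.624, 1.22, 1.48 and 0.673 CPM in WT1 to WT4. OE1, OE2 and OE4 exceeded the wild-type range and OE3 lay within it. The log2 fold change of 0.89 (SE 0.33, edgeR adjusted p = 0.36) had the lowest p of the 31 members, and 0.66 (SE 0.35, adjusted p = 0.56) remained without OE1.

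Psmb9 stood at 2.0, 2.02, 1.08 and 1.23 CPM in OE1 to OE4 and at 1.247, 1.39, 1.204 and 1.54 CPM in WT1 to WT4, with OE1 and OE2 above the wild-type range and OE3 below it (log2 fold change 0.23, SE 0.28, adjusted p = 0.79). In the proteasome pair OE1 carried 48.3% of the log2 shift and OE2 38.8%, against 93.8% for OE1 in the signalling factors and 96.7% in the effectors. By gene, the share of OE1 was 42.1% in Psmb8 and 79.1% in Psmb9. Low shares were not particular to the pair, with 55.1% in Usp18, 51.5% in Gbp7 and 47.9% in Ifi27l2a. Psmb8 shares 498 exon bases with an antisense gene and Psmb9 shares 212 with Tap1 on the opposite strand. Of 14 constitutive proteasome genes, among them Psmb5, Psmb6 and Psmb7, edgeR called 0. At an unadjusted p under 0.05, 1 was higher and 0 lower, where 5.24% and 5.43% of all genes were. The 14 genes had a median log2 fold change of -0.017. OE1 was the highest library for 0 of them, where it was highest for 11.8% of all genes. Psmb10, which encodes the other catalytic subunit of the immunoproteasome, had a log2 fold change of 0.26 (SE 0.086, edgeR adjusted p = 0.31) with its highest level in OE3.

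The rest of the pathway was read from lists of genes chosen by name. Of 21 interferon ligand genes, 20 had 0 counts in all 8 libraries, among them Ifnb1 and Ifng, and Ifna1 had 2 counts in OE2. No interferon transcript was detectable in OE1 at this depth. Of 12 receptor, kinase and feedback genes, 0 passed the threshold in edgeR, and the median log2 fold change was -0.035. At an unadjusted p under 0.05, 1 was higher and 0 lower, where 5.24% and 5.43% of all genes were. The receptor gene Ifnar1 stood at 0.946 times wild type in OE1 and Ifnar2 at 0.940 times. In that list the lowest p values belonged to Socs3 (log2 fold change 0.56, SE 0.21), Il10rb (-0.30, SE 0.15), Ifnlr1 (-1.25, SE 0.73) and Ifnar2 (-0.19, SE 0.11). Socs3, an inhibitor of cytokine signalling, was highest in OE4. All its overexpression libraries lay above all its wild-type libraries, which 2.82% of all genes tested did. For Il10rb all overexpression libraries lay below.

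Among 21 sensing adaptors, kinases and factors, 20 were tested and 0 passed in edgeR. Of these, 5 were higher and 1 lower at an unadjusted p under 0.05, where 5.24% and 5.43% of all genes were. The median log2 fold change was 0.14, and 0.023 without OE1. Trim25, the ligase that activates RIG-I, had the lowest p (log2 fold change 0.35, SE 0.12, edgeR adjusted p = 0.32) and was highest in OE1. Traf3 (-0.14, SE 0.055), Myd88 (0.36, SE 0.16) and Irf5 (0.46, SE 0.21) followed on the same scale. Trim25, Myd88 and Tlr9 had all overexpression libraries above all wild-type libraries, which 2.82% of all genes tested did. Dhx58, which encodes LGP2, the relative of RIG-I that lacks a signalling domain, had 144 counts in OE1 and 28 to 60 in the other libraries. Values for the adaptor Mavs and the cGAS-STING genes were smaller: OE1 was 1.02 times wild type for Mavs, 1.38 times for Mb21d1 (cGAS) and 1.085 times for Tmem173 (STING).

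A further list held 55 interferon-induced genes that are not members. Of its 50 tested genes, 0 passed the threshold in edgeR. At an unadjusted p under 0.05 there were 8 higher and 0 lower, where 5.24% of all genes were higher and 5.43% lower. The median log2 fold change was 0.31, and 0.051 without OE1. OE1 was highest for 43 of the 50, where it was highest for 11.8% of all genes. Gbp9 (log2 fold change 0.55, SE 0.17), Psmb10, Ifitm1 (0.90, SE 0.32) and Helz2 (0.45, SE 0.16) had the lowest p, each with an edgeR adjusted p from 0.31 to 0.34. Its mean shift was 0.85 in OE1 against 0.20, -0.094 and 0.14 in OE2 to OE4 and -0.11 to 0.12 in wild type.

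**Figure D4:**
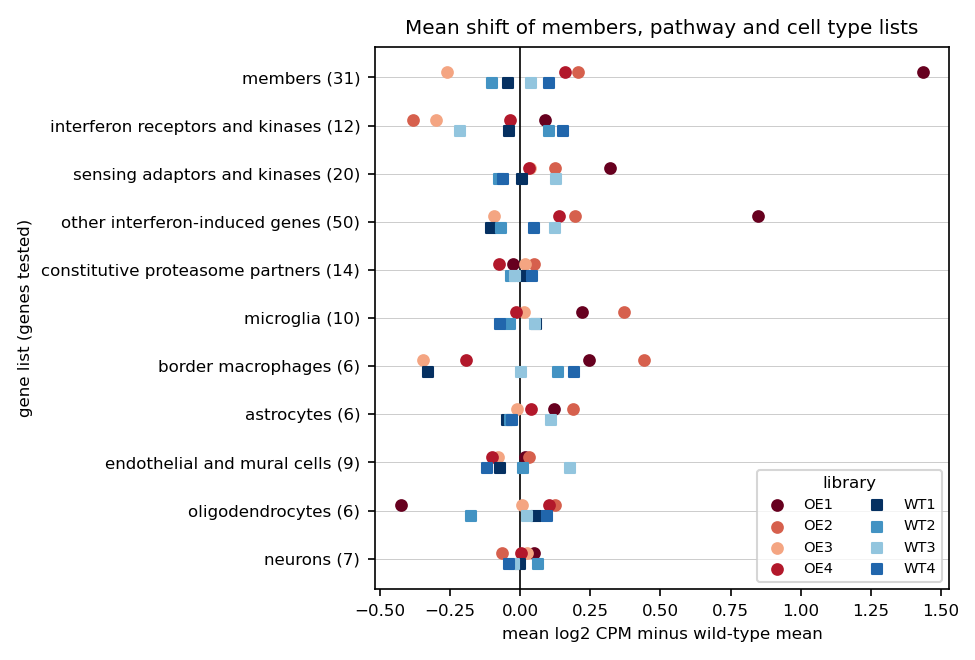
Mean log2 CPM minus the wild-type mean of the members and of pathway and cell type lists, 1 point per library, circles for overexpression and squares for wild type. OE1 stands at 1.44 for the members and 0.85 for the other interferon-induced genes, while receptors, proteasome partners, endothelial cells and neurons lie near 0 in OE1.

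Markers of cell types that could carry these transcripts were read beside them. The 10 microglia markers summed to 536 CPM in OE1 and 562 CPM in OE2, against 474 and 442 in OE3 and OE4 and 421 to 482 in wild type. Of these 10 markers edgeR called 0. At an unadjusted p under 0.05, 5 were higher and 0 lower, where 5.24% and 5.43% of all genes were. The median log2 fold change of the microglia markers was 0.21, and 0.17 without OE1. The mean shift of the members was 1.44 in OE1 and 0.21 in OE2. The 6 border macrophage markers summed to 10.7 CPM in OE1, where wild type ran from 6.62 to 13.1 CPM. The 10 T and NK cell markers summed to 10.6 CPM in OE1, where wild type ran from 9.59 to 13.9 CPM, but Trbc2 at 8.04 CPM and Cd4 at 1.62 CPM made up most of that sum. Of the other 8, Cd3e and Cd8a had 0 counts in OE1, and 4 were highest there. Cd3d had 15 counts in OE1, 8 in OE2 and 0 in the other 6 libraries, and Nkg7 had 18 in OE1 and at most 4 elsewhere. The granzyme genes Gzmb and Gzma had 6 and 2 counts in OE1 and 0 in the other 7 libraries.

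The 9 neutrophil and monocyte markers summed to 1.69 CPM in OE1 and 1.29 to 1.92 CPM in wild type. The neutrophil genes S100a8, S100a9, Ngp, Camp and Retnlg were at 0 counts in OE1. The monocyte gene Ly6c2 had 10, 4, 6 and 9 counts in OE1 to OE4 and 0, 0, 0 and 4 in WT1 to WT4, and Plac8 had 10, 4, 4 and 2 against 0, 2, 0 and 2. Ccr2, another monocyte gene, had 4 counts in OE1 and 16 to 30 in wild type.

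The 6 B and plasma cell markers summed to 0.654 CPM in OE1 and 0.726 to 1.565 CPM in wild type. Endothelial and mural markers gave 599 CPM in OE1 and 553 to 661 CPM in wild type, and the astrocyte markers gave 2142 and 1903 to 2140 CPM. Red blood cell genes summed to 117 CPM in OE1 and 108 to 232 CPM in wild type. OE1 also differed in oligodendrocyte markers, which summed to 4202 CPM there, against 5049 to 6100 in the other 7 libraries. The striatal gene Drd2 had 53 counts in OE1 and 84 to 591 in the others, and WT3 was the next lowest at 84. The part of these cell type differences in the member levels of OE1 was not tested.

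The motif shown above was also read against the shifts of single libraries over all genes, as a description. Members were left out, and 444 tested genes with a match were set beside 12165 without one. In OE1, 4.95% of the former and 1.38% of the latter stood at least 1 above the wild-type mean on the log2 scale. In OE2 the shares were 2.03% and 1.57%, in OE3 1.35% and 1.22%, and in OE4 1.35% and 2.01%. Interferon-induced genes that are not members were kept. The 22 genes with a match that stood so high in OE1 included Tgtp1, Irgm2, Igtp and Slfn8 of the further list. Others bear names close to those of listed genes, such as Tgtp2, Trim30d, Slfn9, Ifi203, Ifi207 and Ifi208, while Mdfi, Aoah and Chek1 do not. The 4.95% therefore includes interferon-induced genes outside the lists, and the share without them was not computed. Among the tested members with a window, the median shift in OE1 was 1.44 for 15 with a match and 0.82 for 10 without, and Irf7 and Oasl2 were high in OE1 with no match in their window.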

How the data were processed

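The deposited table holds raw read counts per Ensembl gene for 8 libraries, mapped to samples by the labels' descriptions. Strand-specific poly(A) libraries were made per the labels' protocols. The submitters' processing notes list GRCm38, featureCounts 2.0.3, STAR 2.7.10 and Trimmomatic 0.39. The strand setting, annotation release and handling of multi-mapping reads are not stated there. Symbols and coordinates came from GENCODE M21 (GRCm38) by Ensembl identifier, with 54409 of 54446 matched. Members and lists were chosen with earlier results of these data known, and all 33 members are named.

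Genes were filtered with filterByExpr (17636 left) and tested with edgeR 4.0.16's robust quasi-likelihood F test in R 4.3.3 after TMM scaling, adjusted over all genes tested by Benjamini-Hochberg. Shifts are log2 CPM with a prior count of 2, minus the wild-type mean. Motif matches were counted in RefSeq promoter windows, and transcript identity came from blastn. The alternatives were RLE and upper-quartile scaling, other filters, DESeq2 1.42.0, limma-voom (limma 3.58.1), no robust estimation, a replicate block, a GC spline with 5 degrees of freedom, and left-out libraries. Intervals cover counting error only. No library copied another (chi-square per degree of freedom at least 9.57). Whether libraries come from different mice is not stated, and p-values then cover library-to-library spread that may be technical. For 1 gene of the pathway lists no value of its own is reported here.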

Additional observations from a re-analysis of the deposited data

Results flagged for a closer look

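A library far from the 3 others of its group was found for 14 of 66 combinations of member and group, by the 95% critical value of Dixon's gap test. That value flags about 1 in 20 where levels are normally distributed. CPM of genes with few counts need not be, and no share over all genes is given here to compare. OE1 was the far library in 12 of them, always on the high side. Its levels were 15.7 CPM for Irf7 (others 1.48 to 2.79), 36.0 for Stat2 (23.2 to 25.03), 31.8 for Ifit3 (9.32 to 12.9), 15.7 for Ifit3b (4.31 to 5.43), 7.48 for Isg15 (1.17 to 1.72) and 22.0 for Oasl2 (3.84 to 5.18). They were 5.15 CPM for Rsad2 (1.76 to 2.0), 9.27 for Samd9l (4.35 to 4.81), 2.73 for Ifi44 (0.316 to 0.372), 4.77 for Rtp4 (1.07 to 1.59), 5.87 for Xaf1 (3.68 to 3.90) and 4.29 for Cxcl10 (0.132 to 0.413). In wild type, WT4 was high for Rsad2 at 2.50 CPM (1.56 to 1.67) and WT2 for Samd9l at 7.0 CPM (5.31 to 5.47). The 12 values of OE1 come from 1 library and are not independent.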

How the results depend on the processing

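No alternative called a member, a count of 0 in each of the 18 other fits, with lowest adjusted p from 0.165 to 0.909. The count over all genes was 6, and 1 without overexpression replicates 2 and 3, 83 with no low-count filter, 44 with DESeq2, 2 with limma-voom, 2 without robust estimation, 1 with the replicate block and 1 to 8 with single libraries left out. Replicate numbers did not pair the samples (correlations of deviations -0.0426 to 0.0744); the block gave a member median of 0.303. The member median was 0.279 to 0.913 over the fits that kept OE1 (0.501 after GC correction). With single libraries left out, medians ran from -0.0508 to 0.304 (sensors), 0.0285 to 0.798 (signalling factors) and -0.032 to 0.387 (other induced genes, and 0.65 without overexpression replicates 2 and 3). Members whose groups do not overlap numbered 0 to 11 with single libraries left out, 16 without overexpression replicates 2 and 3, and 1 under upper-quartile scaling, no low-count filter or the 1 CPM filter. Groups of fewer libraries separate more easily, and the share over all genes is known for the 8 libraries only, at 2.82%. The counts with libraries left out therefore have no background to be read against. The share carried by OE1 ran from 76.6% to 108%. Signs turned without OE1 for 14 members, whose ranges with single libraries left out were -0.0788 to 0.304 (Ifih1), -0.0227 to 0.286 (Ddx58), -0.387 to 1.26 (Irf7), -0.022 to 0.402 (Irf9), -0.0713 to 0.308 (Ifit2), -0.092 to 0.742 (Ifit3b), -0.103 to 1.36 (Oas2), -0.454 to 0.525 (Bst2), -0.316 to 0.118 (Samd9l), -0.0654 to 0.32 (Ifi27), -1.28 to 0.464 (Ifi44), -0.149 to 0.768 (Rtp4), -0.0216 to 0.252 (Xaf1) and -0.0424 to 0.351 (Parp14). Signs also turned with limma-voom for Bst2 (-0.00415), Samd9l (-0.0578) and Ifi44 (-0.486), and with the replicate block for Samd9l (-0.0575) and Ifi44 (-0.474). The cause was not tested. Members under about 0.5 CPM rest on few counts in wild type.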

Other observations

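Genes with a mean of at least 1 CPM over the 8 libraries numbered 14299, and 27 of them were members. They were ranked by their shift in OE1 after the values were seen. Of the top 25 genes, 9 were members and 3 were of the further interferon-induced list. The mean includes OE1, so a gene high there can pass by that library. Usp18 and Dhx58, both in the top 25, had wild-type means of 0.721 and 0.794 CPM. Isg15, Oasl2 and Irf7 held the first 3 places, with shifts of 2.85, 2.42 and 2.42 on the log2 scale. In the same ranking of OE2, 1 of the top 25 was a member, and in OE3 and OE4 0 were. Genes of neither list near the top included the class I histocompatibility genes H2-Q7 (2.40 in OE1, 0.15, 0.21 and 0.51 in OE2 to OE4) and H2-Q6 (1.97, 0.51, -0.20 and 0.48), and the interferon-induced GTPase gene Tgtp2 (2.08, -0.40, -0.60 and -0.66). Class II antigen presentation genes stood there too, with H2-Ab1 at 2.01, 0.99, 0.61 and 0.52 in OE1 to OE4 and Cd74 at 1.75, 0.68, 0.36 and 0.60. Gpnmb, a lysosomal gene of activated phagocytes, stood at 1.79, 0.88, 0.11 and 0.22.

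Ino80e itself was 18th in this ranking, at 1.76 in OE1 and 1.04 in OE4. OE1, with the highest Ino80e, had a member shift of 1.44, and OE4, with the second-highest, had 0.16. OE2 and OE3, with Ino80e within the wild-type range, had 0.21 and -0.26. Whether the member shift follows the Ino80e level was not tested.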
